A study of Rattus norvegicus with 6 samples.

Results

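Lysosomal hydrolases and membrane proteins were followed through 36 genes, chosen by symbol from a list that holds the transcription factors Tfeb and Tfe3 and 34 genes for components of the lysosome. All 36 symbols were found, each in 1 row, among the 18930 rows of the count table. RNA was sequenced from NRK-52E cells, an established epithelial line from the rat kidney, labelled WT in every sample. The 3 Control samples received vehicle, and the other 3 were exposed for 24 h to streptozotocin (STZ), a glucose analog that alkylates DNA, at 10 mM, and the comparison asks which transcripts differ after that treatment. The cells are a single line in culture, and no source used here says whether the replicates were separate cultures. The p-values therefore set the difference between the groups against the spread among these samples only.

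Lysosomes are acidic organelles in which hydrolases break down proteins, glycans, glycosaminoglycans, lipids and nucleic acids. The vacuolar-type proton pump acidifies their lumen, and heavily glycosylated membrane proteins such as Lamp1 and Lamp2 line it. Tfeb and Tfe3 are basic helix-loop-helix transcription factors that are held in the cytoplasm when mTORC1 is active at the lysosomal surface, and that in the nucleus bind E-box motifs at many lysosomal genes. Proximal tubule cells of the kidney are known for an active endocytic and lysosomal system that degrades filtered proteins.

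Total counts were between 10430924 and 15191349 per sample. Of the 36 genes, 33 passed the filter on low counts, and each of these had at least 247 counts in every sample. The other 3 were too low to test. Ctsh, an aminopeptidase cathepsin, had 1 count in STZ replicate 1 and 0 in every other sample. Ctsz had between 1 and 7 counts, and Mcoln1, a calcium channel of the lysosomal membrane, between 0 and 7. Whether such low counts reflect the level of the transcript or the gene model used in the counting was not tested, for Mcoln1 in particular. Values are CPM, each count set against its library total after scaling of the libraries by edgeR's TMM method. Differences are log2 fold changes of STZ against Control with adjusted p-values from edgeR's quasi-likelihood test (Benjamini-Hochberg over all 11870 genes tested), and a gene was called higher or lower at an adjusted p-value under 0.05. In bulk RNA a difference in the number of cells of a type cannot be told apart from a difference in RNA per cell. Markers of the labelled cell type were sparse. Of 12 markers of kidney tubule epithelium that were found, 3 passed the filter (Krt8, Cdh1 and Aqp1). Krt8 was at 1149 ± 40.7 CPM in Control (SD, n = 3), while the proximal tubule genes Lrp2, Slc34a1, Slc5a2 and Slc2a2 were too low to test.

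Most lysosomal genes were higher in STZ-treated cells. Of the 33 tested, 26 were higher, 2 were lower and 5 were not called, so that 78.8% were higher and 6.06% lower, where over all genes tested 25.9% were higher and 25.1% lower. Among all genes with a mean of at least 500 counts, a level that 30 of the lysosomal genes reached and that was set after the counts had been seen, 33.2% were higher and 28.4% lower. The median log2 fold change was 0.27 for the 33 genes and -0.01 for all genes tested. The changes were moderate. The largest absolute log2 fold change was 0.79, and 0 genes passed the study's additional threshold of an absolute log2 fold change over 1 by edgeR's quasi-likelihood or likelihood ratio test, by DESeq2 or by limma-voom, also at an unadjusted p under 0.05. At an unadjusted p under 0.05 alone, 28 of the 33 differed by each of these tools. The share of all genes at that unadjusted p was not computed. At the adjusted p it was already 25.9% higher and 25.1% lower. Over all genes tested, 2.26% were higher and 1.11% lower with that fold-change threshold.

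Replicates lay close together. The coefficient of variation over replicates had a median of 3.18% in Control and 2.11% in STZ among the 33 genes, and Tfeb had the largest, 12.4% in Control. In 26 of them every STZ sample was above every Control sample and in 2 every STZ sample was below, where 28.6% and 27.7% of all genes tested were separated in those directions. Summed over the 36 genes, the level was 9896, 9983 and 9711 CPM in Control replicates 1, 2 and 3 and 12864, 12811 and 12730.3 CPM in STZ replicates 1, 2 and 3. The ratio of the group means was 1.3. The plot of each gene by sample shows both groups.

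**Figure D1:**
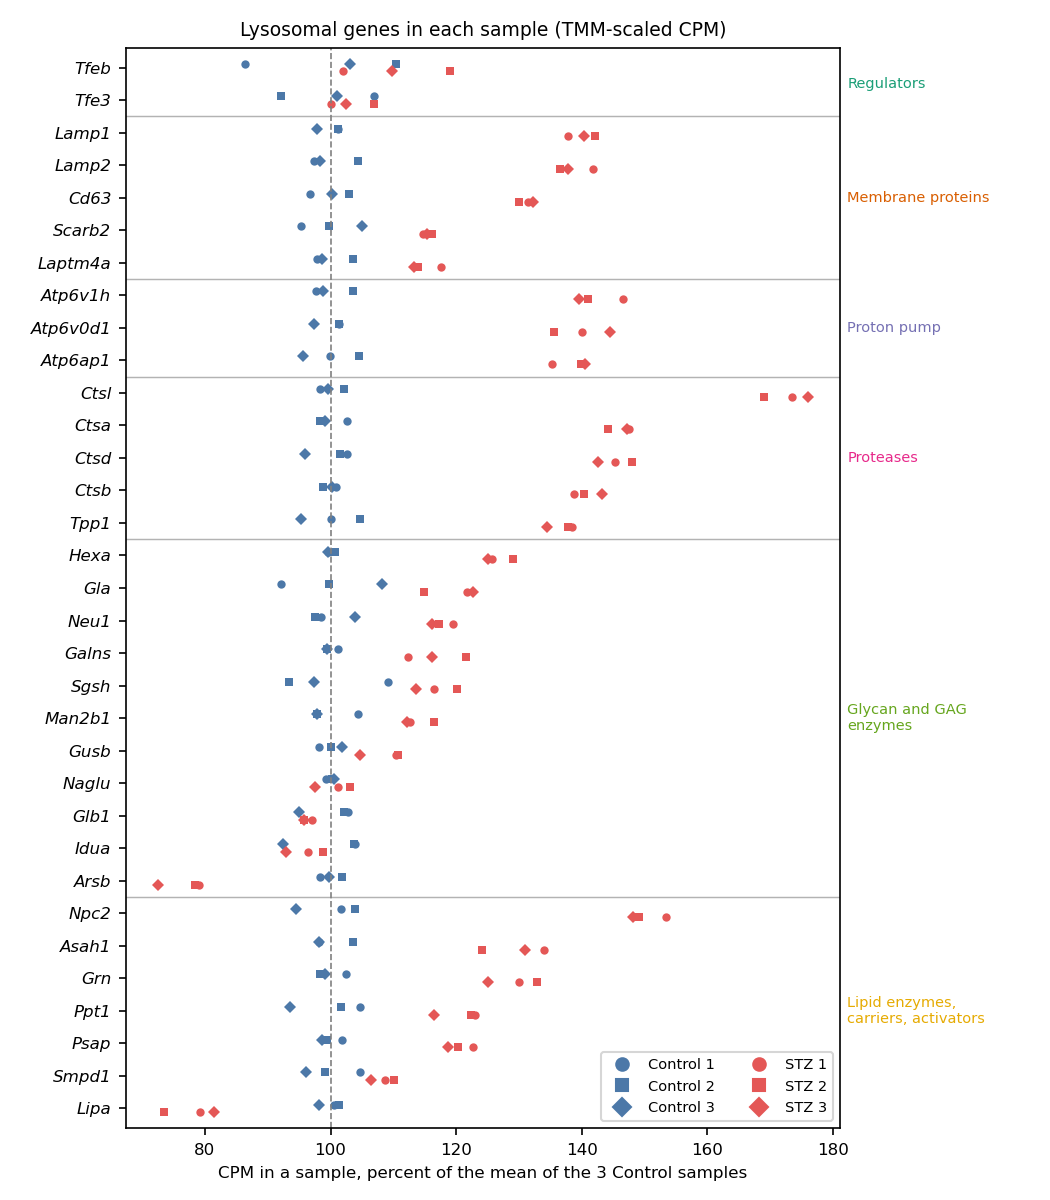
TMM-scaled CPM of each of the 33 tested genes in each sample, as a percent of the mean of the 3 Control samples of that gene (horizontal axis), grouped by role. GAG stands for glycosaminoglycan. Blue markers are Control and red markers STZ, with 1 shape per replicate number. STZ samples lay to the right of all Control samples in 26 genes, to the left in Arsb and Lipa, and among them in Tfeb, Tfe3, Naglu, Glb1 and Idua.

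The transcription factors of the list were not called. Tfeb was at 23.3, 29.8 and 27.8 CPM in Control replicates 1, 2 and 3 and at 27.5, 32.1 and 29.6 CPM in STZ replicates 1, 2 and 3. Its groups overlapped, with the lowest value in Control replicate 1. The log2 fold change was 0.14, with a 95% interval (1.96 standard errors on each side) from -0.02 to 0.29 and an edgeR adjusted p of 0.16. Tfe3 was at 66.7, 57.4 and 63 CPM in Control and at 62.4, 66.7 and 63.9 CPM in STZ. The groups overlapped here too, and the log2 fold change was 0.04, with an interval from -0.07 to 0.15 (edgeR adjusted p = 0.54). These are mRNA levels, and where the proteins were in the cell was not measured in these samples.

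The E-box CACGTG is the core of the motif through which Tfeb and Tfe3 are known to bind lysosomal genes. RefSeq promoter windows of 300 bases (build GRCr8, 250 bases before and 50 after an annotated start site) were used for 29 of the 36 genes, and those of Atp6v1h, Ctsb, Hexa, Arsb, Ppt1, Asah1 and Psap were not used here. Of these 29, 8 held CACGTG (27.6%), against 9.17% of the windows of 11522 protein-coding genes of the count table. The 11522 include the 29 genes themselves and genes at any count level, and were not matched to the 29 by level. The longer palindrome TCACGTGA, which contains it, was in 4 of the 29 (13.8%) and in 1.59% of the 11522. With a G added before it and a C after it, a still longer palindrome was in 0 of the 29 and in 0.521% of the 11522. These motifs are palindromes, so a search of 1 strand covers both. CACGTG was in 5 of 20 windows of genes called higher, in 2 of 6 windows of genes called lower or not called, namely Glb1 and Idua, and in 1 of 3 windows of genes not tested, namely Mcoln1. Tfeb and Tfe3 had no CACGTG in their own windows. The start site used was the 5′ edge of the annotated gene span for 17 of the 29 genes. For Tfeb it lay 49141 bases inside the span, and for Idua and Cd63 12985 and 12606 bases inside. Sequence at other start sites of such genes was not searched.

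The windows of Lamp1 and Ctsd are shown because they held the most copies among genes called higher, with CACGTG in capitals. They lie on the minus strand at chr16:83075014-83075313 and chr1:206968772-206969071 and read 5′ to 3′ towards the gene:
Lamp1: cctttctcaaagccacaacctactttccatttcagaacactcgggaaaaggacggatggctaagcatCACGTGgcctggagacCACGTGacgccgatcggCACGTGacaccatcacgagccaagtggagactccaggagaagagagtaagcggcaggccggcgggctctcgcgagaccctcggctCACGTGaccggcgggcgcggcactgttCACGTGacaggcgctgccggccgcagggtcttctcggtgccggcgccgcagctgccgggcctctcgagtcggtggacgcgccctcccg
Ctsd: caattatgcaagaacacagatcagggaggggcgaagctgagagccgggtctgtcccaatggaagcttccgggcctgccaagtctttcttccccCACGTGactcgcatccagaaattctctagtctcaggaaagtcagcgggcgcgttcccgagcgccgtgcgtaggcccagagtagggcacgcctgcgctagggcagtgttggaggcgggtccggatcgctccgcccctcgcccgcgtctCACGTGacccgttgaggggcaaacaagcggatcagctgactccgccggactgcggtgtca
Lamp1 had 5 copies, which began at -183, -167, -150, -65 and -38 from the start site, and the last pair of these was part of TCACGTGA. Its start site in this table lies 7780 bases inside the annotated span of the gene. Ctsd had copies at -157 and -10, and the copy at -10 was part of TCACGTGA. A match describes the letters in the window and not the binding of a factor.

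Membrane proteins were higher in each of the 5 genes tested, with log2 fold changes between 0.2 and 0.49. Lamp1, the most widely used marker of the lysosomal membrane, was at 931, 931 and 900.2 CPM in Control replicates 1, 2 and 3 and at 1269.8, 1309 and 1292 CPM in STZ replicates 1, 2 and 3. The groups were far apart and the replicates of each close, and the level was 1.4-fold higher with STZ (log2 fold change 0.49, standard error 0.034, edgeR adjusted p = 9.1e-16). Lamp2, whose isoforms take part in chaperone-mediated autophagy and fusion with autophagosomes, was at 323, 346 and 326 CPM in Control and at 470.1, 453 and 457 CPM in STZ. It rose by a similar amount, 1.39-fold (edgeR adjusted p = 2.9e-14). Cd63, a tetraspanin of late endosomes and lysosomes, was at 419, 446 and 434 CPM in Control and at 569, 563 and 573 CPM in STZ. All its STZ samples were above all its Control samples, with a log2 fold change of 0.39 (standard error 0.036, edgeR adjusted p = 2.4e-12). Laptm4a, a small transmembrane protein of late endosomes and lysosomes, was at 1179.6, 1250.2 and 1189 CPM in Control and at 1419, 1375 and 1366 CPM in STZ. Its rise was smaller, 1.15-fold (edgeR adjusted p = 5.5e-06). Scarb2, the receptor that carries glucocerebrosidase to lysosomes, rose by the same factor, 1.15-fold.

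The 3 genes of the proton pump rose by nearly equal amounts. Atp6v0d1, a subunit of the membrane-bound sector of the pump, was at 183, 183 and 176 CPM in Control replicates 1, 2 and 3 and at 253, 245 and 261 CPM in STZ replicates 1, 2 and 3. Its groups did not overlap, and the log2 fold change was 0.49 (standard error 0.04, edgeR adjusted p = 1.2e-13). Atp6v1h, a subunit of the cytosolic sector that hydrolyses ATP, was at 73.4, 77.9 and 74.3 CPM in Control and at 110.3, 106 and 105 CPM in STZ. The groups were again apart, with a log2 fold change of 0.51 (standard error 0.048, edgeR adjusted p = 6.2e-12). Atp6ap1, an accessory protein of the pump, was at 324, 339 and 310.3 CPM in Control and at 439, 454 and 456 CPM in STZ. Its log2 fold change was 0.47 (standard error 0.038, edgeR adjusted p = 5e-14), and the intervals of the 3 genes overlapped.

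Proteases had the largest changes, between 0.46 and 0.79 on the log2 scale for the 5 genes tested, and each was higher. Ctsl, a cysteine cathepsin with endopeptidase activity, was at 624, 648 and 632 CPM in Control replicates 1, 2 and 3 and at 1101, 1073 and 1117 CPM in STZ replicates 1, 2 and 3. It was 1.73-fold higher with STZ, the largest rise among the 33 genes (log2 fold change 0.79, 95% interval from 0.72 to 0.86, edgeR adjusted p = 1.9e-22), and 3.71% of all genes tested had a larger log2 fold change. Ctsd, the main aspartic protease of lysosomes, was at 415, 410.3 and 388 CPM in Control and at 588, 599 and 577 CPM in STZ. Its samples were well separated, 1.46-fold apart (edgeR adjusted p = 2.5e-16). Ctsa, a serine carboxypeptidase that also protects the sialidase Neu1 and beta-galactosidase in a complex, was at 237, 227 and 229 CPM in Control and at 341, 333 and 340.2 CPM in STZ. Its fold was the same, 1.46 (edgeR adjusted p = 4.3e-16). Ctsb, a cysteine cathepsin, was at 747, 732 and 742 CPM in Control and at 1028, 1039.8 and 1061 CPM in STZ. That is 1.41-fold higher (log2 fold change 0.49, edgeR adjusted p = 5.6e-16), and Tpp1, a tripeptidyl peptidase, was 1.37-fold higher.

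Glycan and glycosaminoglycan enzymes changed less and not in 1 direction. Of 11 genes, 7 were higher, 1 was lower and 3 were not called, and log2 fold changes were between -0.38 and 0.34, a range that did not reach that of the proteases. Hexa, the alpha subunit of beta-hexosaminidase, was at 176, 178 and 176 CPM in Control replicates 1, 2 and 3 and at 222, 228 and 221 CPM in STZ replicates 1, 2 and 3. It had the largest rise of this group, 1.27-fold (log2 fold change 0.34, standard error 0.04, edgeR adjusted p = 1.2e-09). Neu1, which removes sialic acid, was at 89, 88.1 and 93.9 CPM in Control and at 108, 106 and 105 CPM in STZ. The groups were apart by 1.18-fold (edgeR adjusted p = 5.4e-05). Gusb, beta-glucuronidase, was at 239, 244 and 248 CPM in Control and at 269, 269.7 and 255 CPM in STZ. This rise was small, 1.08-fold (edgeR adjusted p = 0.012), and was not called when libraries were scaled by their size only or when STZ replicate 1 or STZ replicate 2 was left out (log2 fold changes 0.08, 0.11 and 0.1). Log2 fold changes were 0.26 for Gla (alpha-galactosidase A), 0.22 for Galns and 0.22 for Sgsh (which remove sulfate from keratan and heparan sulfate), and 0.19 for Man2b1 (alpha-mannosidase), each called higher.

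Arsb, the sulfatase that acts on dermatan and chondroitin sulfate, was lower. It was at 168, 174 and 170.5 CPM in Control replicates 1, 2 and 3 and at 135, 134 and 124 CPM in STZ replicates 1, 2 and 3. Every STZ sample lay below every Control sample, and the log2 fold change was -0.38 (95% interval from -0.47 to -0.3, edgeR adjusted p = 6.8e-10). Glb1 (beta-galactosidase, whose activity is used as a stain for senescent cells), Idua (alpha-iduronidase) and Naglu (alpha-N-acetylglucosaminidase) were not called. Their log2 fold changes were -0.06 (interval from -0.14 to 0.03), -0.06 (interval from -0.19 to 0.07) and 0.01 (interval from -0.1 to 0.11). Glb1 was at 162, 161 and 149.6 CPM in Control and at 153, 151 and 151 CPM in STZ, and its STZ values fell within the range of Control.

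Among the 7 lipid enzymes, lipid carriers and activators, 6 were higher and 1 was lower. Npc2, which carries cholesterol out of the lysosomal lumen together with Npc1, was at 420.2, 429 and 390.1 CPM in Control replicates 1, 2 and 3 and at 634, 616 and 612 CPM in STZ replicates 1, 2 and 3. It was 1.5-fold higher, the second largest rise of the 33 genes (log2 fold change 0.59, standard error 0.038, edgeR adjusted p = 4.1e-17). Grn, the precursor of granulins, was at 770.1, 739 and 744 CPM in Control and at 977, 998 and 939.6 CPM in STZ. Asah1, acid ceramidase, was at 100.4, 106 and 100.4 CPM in Control and at 137, 127 and 134 CPM in STZ. Both genes were separated between the groups, Grn by 1.29-fold (edgeR adjusted p = 7e-12) and Asah1 by 1.3-fold (edgeR adjusted p = 3.1e-09). Psap, the precursor of the saposins that help hydrolases act on sphingolipids, was at 976, 953 and 945 CPM in Control and at 1176, 1152 and 1137 CPM in STZ. It rose 1.21-fold (edgeR adjusted p = 1.1e-08), as did Ppt1, a thioesterase that removes palmitate from proteins. Smpd1, acid sphingomyelinase, was 1.08-fold higher (edgeR adjusted p = 0.01) and was not called when libraries were scaled by their size only or when Control replicate 3 was left out (log2 fold changes 0.08 and 0.09).

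Lipa, the lysosomal acid lipase that hydrolyses cholesteryl esters and triglycerides, was the other gene that fell, and is described after its values were seen. It was at 126, 127 and 123 CPM in Control replicates 1, 2 and 3 and at 99.3, 92.1 and 102 CPM in STZ replicates 1, 2 and 3. No STZ sample reached the lowest Control sample, and the log2 fold change was -0.36 (95% interval from -0.45 to -0.27, edgeR adjusted p = 1.7e-08). Npc2 and Lipa, both of which handle cholesterol in the lumen, moved in opposite directions. Npc1, named above with Npc2, was higher as well (log2 fold change 0.18, edgeR adjusted p = 0.0027).

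**Figure D2:**
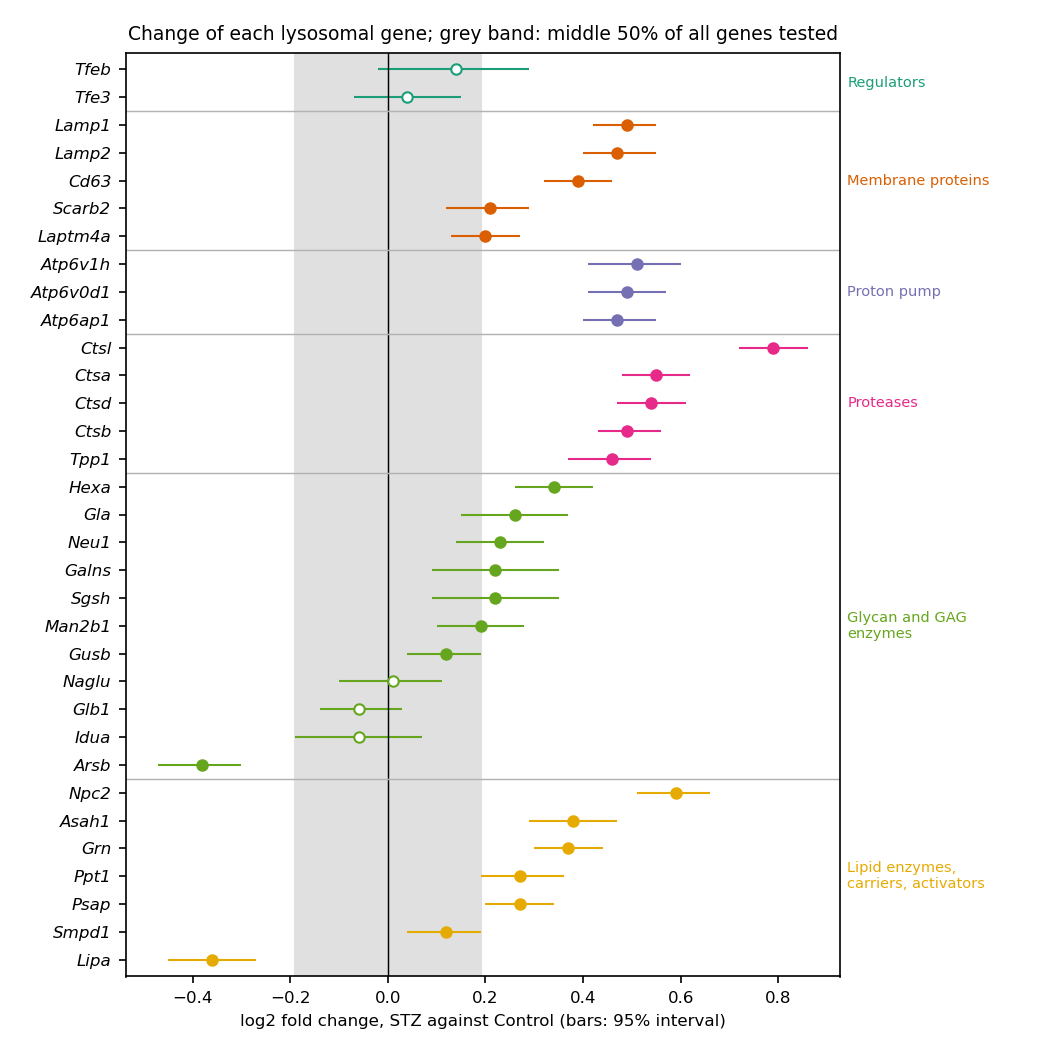
Log2 fold change of STZ against Control for each of the 33 tested genes, with bars of 1.96 standard errors on each side. Filled points were called at an adjusted p-value under 0.05 and open points were not, and the grey band spans the middle 50% of all 11870 genes tested (-0.19 to 0.19). Proteases and proton pump genes lie to the right of the band, and most glycan and GAG (glycosaminoglycan) enzymes lie in it or near it.

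By role group, the summed level was 2171, 2173 and 2131 CPM for proteases in Control replicates 1, 2 and 3 and 3263, 3249 and 3294 CPM in STZ replicates 1, 2 and 3, a ratio of means of 1.51. For the proton pump genes the ratio was 1.4, for membrane proteins 1.27 and for the lipid group 1.24. Glycan and glycosaminoglycan enzymes summed to 1174, 1178 and 1172 CPM in Control and to 1257, 1267 and 1223 CPM in STZ, a ratio of 1.06. The regulators overlapped, at 87.2 to 90.8 CPM in Control and 90 to 98.9 CPM in STZ. A sum over counts weighs long and abundant transcripts most, and no p-value is given for it.

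**Figure D3:**
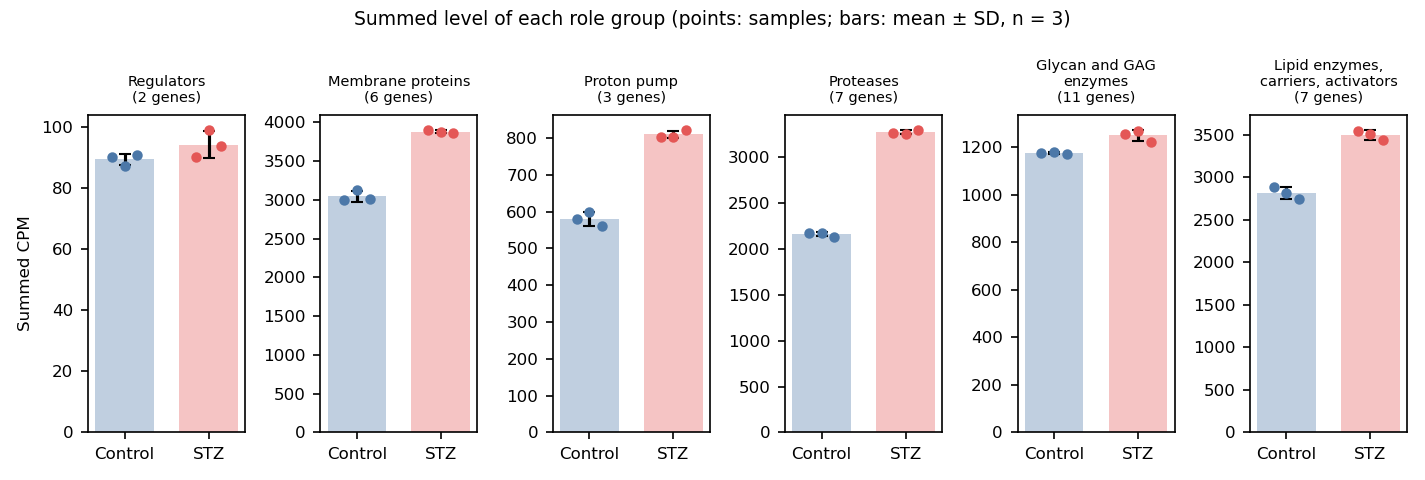
Summed CPM of the genes of each role group by condition, with genes too low to test included. Points are samples, bars are means and error bars are 1 SD (n = 3), and each panel has its own axis from 0. STZ samples lie above all Control samples in every panel except that of the regulators, and the step is widest for proteases (3269 against 2159 CPM in the mean).

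Other genes of the lysosome, taken from lists of the remaining subunits, hydrolases, membrane proteins, sorting factors and control factors, moved in both directions. Of 141 symbols listed, 125 were found in the count table and 109 were tested. Of the 109 tested, 58 were higher (53.2%), 14 were lower (12.8%) and 37 were not called, with a median log2 fold change of 0.14. Over all genes tested these shares were 25.9% and 25.1%. The difference between these lists and the 33 genes was not tested.

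Of 22 other proton pump subunits listed, only 15 had a row in the count table, and these were tested. Among these 15, 11 were higher and 1 was lower, with a median log2 fold change of 0.42. Over all genes tested, 25.9% were higher and 25.1% lower. Atp6v1d, a subunit of the central stalk, was at 166, 161 and 144 CPM in Control replicates 1, 2 and 3 and at 313, 297 and 324 CPM in STZ replicates 1, 2 and 3. Its log2 fold change of 0.99 lay just under the study's fold-change threshold (edgeR adjusted p = 3.1e-22). Atp6v0c, the subunit of the proton-conducting ring, had a log2 fold change of 0.6. Atp6v0a1, a membrane-sector subunit, was the one subunit called lower, at 106, 101 and 111 CPM in Control and 86.7, 89.8 and 86.3 CPM in STZ (log2 fold change -0.28, edgeR adjusted p = 4.6e-06).

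Among other hydrolases of glycans, sulfate esters, lipids and nucleic acids, 14 of 23 were higher and 2 were lower, with a median of 0.14. Dnase2, the DNase of lysosomes, and Gaa, which degrades glycogen, had the smallest p-values among those that rose (log2 fold changes 0.56 and 0.47), while Galc, which hydrolyses galactosylceramide, and Engase, a cytosolic glycosidase on this list, fell (log2 fold changes -0.24 and -0.4). On the list of other lysosomal proteases, 5 genes were tested, of which 2 were higher and 2 lower, with a median of -0.24. Scpep1 and Lgmn rose (log2 fold changes 0.6 and 0.56) and Ctso fell (log2 fold change -0.3). Lgmn, the asparaginyl endopeptidase that processes cathepsins, went from 135 to 137 CPM over Control samples to 192 to 211 CPM over STZ samples. Cstb and Cst3, inhibitors of cysteine cathepsins, were the 2 inhibitor genes tested and both rose (log2 fold changes 0.63 and 0.36). Other membrane proteins were higher in 13 of 23 genes and lower in 2, and Laptm4b and Litaf had the smallest p-values among those that rose (log2 fold changes 0.49 and 0.39). The largest rise of that list was that of Tmem192 (log2 fold change 0.54), and Abca2 and Tmem106b fell (log2 fold changes -0.22 and -0.19). For comparison with the counts of these lists, 25.9% of all genes tested were higher and 25.1% lower. With a mean of at least 500 counts, 33.2% of genes were higher and 28.4% lower.

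The list for enzyme sorting to lysosomes, which also holds the sulfatase-modifying factor genes Sumf1 and Sumf2, had a median of 0.06, with 10 of 24 higher and 5 lower. Sumf2 and Vps29, a retromer subunit, had the smallest p-values among those that rose (log2 fold changes 0.51 and 0.45), and Gga1 and Ap1m1, adaptors at the trans-Golgi network, fell (log2 fold changes -0.31 and -0.23). Summed, these 24 genes were at 3484 to 3497 CPM in Control and 3547 to 3596 CPM in STZ. Genes that control Tfeb and mTORC1 at the lysosome had a median of 0.1, with 6 of 17 higher and 2 lower. Beside the counts of both lists, 25.9% of all genes tested were higher and 25.1% lower. Among all genes with a mean of at least 500 counts these shares were 33.2% and 28.4%. Rragc, a Rag GTPase, and Lamtor3, a subunit of the Ragulator complex, rose (log2 fold changes 0.35 and 0.32). Ppp3cb, a catalytic subunit of the phosphatase calcineurin that dephosphorylates Tfeb, was at 68.5, 70.2 and 75.1 CPM in Control and at 48.6, 47.6 and 52.4 CPM in STZ. It fell with no overlap of the groups (log2 fold change -0.52, edgeR adjusted p = 2e-10), as did Mlst8, an mTOR complex subunit (log2 fold change -0.44). Ppp3ca, the other calcineurin catalytic subunit on this list, was not called, and its groups overlapped (log2 fold change 0.09). Of the other mTOR complex genes on it, Mtor was not called and Rptor was higher (log2 fold changes -0.03 and 0.13).

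**Figure D4:**
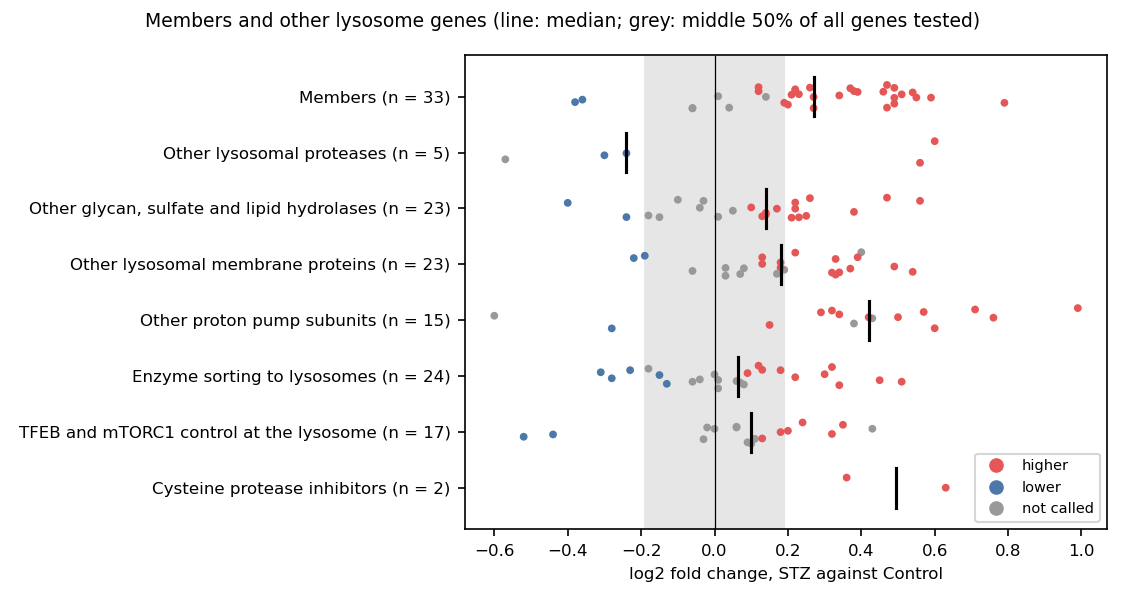
Log2 fold change of STZ against Control for the 33 tested genes (top row) and for the other lysosome lists. Each point is a gene, red if called higher, blue if called lower and grey if not called at an adjusted p-value under 0.05, and the black line is the median of the row. The medians lie at 0.27 for the 33 genes, 0.42 for other proton pump subunits and 0.06 for enzyme sorting, and the grey band spans the middle 50% of all genes tested.

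Macrophages are rich in lysosomes, and of their 8 markers in the table only Cd68 passed the filter. Ptprc, Adgre1, Lyz2, Aif1 and Tyrobp had at most 3 counts in any sample, and the 8 macrophage markers in the table summed to 1.36 to 2.64 CPM in Control and 2.54 to 2.69 CPM in STZ. Cd68, itself a lysosomal protein, gave 0.637 to 1.89 CPM of this in Control and 1.8 to 2.11 CPM in STZ. Of the 6 fibroblast markers that were found, Col1a1, Col3a1 and Pdgfrb were tested and were lower. That list summed to 99.6 to 111 CPM in Control and 56.1 to 66.7 CPM in STZ, and the part of this in the results was not tested. Of the 12 tubule epithelium markers, Krt8 was higher and Cdh1 and Aqp1 were lower.

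In the GRCr8 annotation the spans of 17 of the 36 genes overlap another gene, and whether reads were counted by strand is not given in the sources used here. The overlapping gene had over 100 counts in a sample for 4 of them. Dgkq, which overlaps Idua, had 367 to 727 counts, against 468 to 590 for Idua. Card14 and Slc26a11, which overlap Sgsh, had 149 to 278 and 160 to 299 counts, against 361 to 598 for Sgsh. Tmppe, which overlaps Glb1, had 88 to 158 counts, against 1719 to 2263 for Glb1. Nelfcd, which overlaps Ctsz, had 785 to 1098. How far the counting kept such neighbours apart was not tested. For Ctsa, Ctsd, Hexa, Psap and Atp6v1h the named overlapping genes in the table had at most 18 counts in any sample.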

How the data were processed

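Stranded mRNA libraries of NRK-52E cells were read in single-end mode. Alignment to Rnor6 was done by the authors with STAR 2.7.10a, and unique alignments were assigned to genes by featureCounts. The deposited values are raw counts, not normalized. Their annotation and strand setting are not given in the sources used here. The 6 columns were assigned to samples by their labels.

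The whole table was fitted with edgeR 4.0.16 in R 4.3.3, with filterByExpr to remove low genes, TMM factors and the quasi-likelihood test. Standard errors were derived from the log2 fold change and its F statistic. The fold-change threshold of the study was kept as an alternative. Further alternatives were 3 filters, 3 scalings, the likelihood ratio test, DESeq2 1.42.0, limma-voom (limma 3.58.1), a replicate block and each sample left out. With 3 samples against 3, an exact permutation test cannot give a two-sided p under 0.1 and was not used. The fit was tested on simulated counts for 11870 genes, where it recovered 76 of 100 genes changed by 0.5 and 94 of 100 changed by 1 on the log2 scale and called 12 unchanged genes. Only these genes were changed there, whereas in the data 25.9% of genes tested were called higher and 25.1% lower. Recovery and false calls in the data may therefore differ from these figures.

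Genes with values in every sample were Tfeb and Tfe3 and, in each role group, the 3 with the smallest p and the one with the highest mean count. From the other lists at most the 2 called genes with the smallest p in each direction were taken. Genes given beyond this rule (Lipa, Glb1, Npc1, Ppp3ca, Mtor, Rptor and those in clauses) were picked once their values had been seen. From the list of other proteases, a result is not reported here. Members and lists were chosen with earlier results of these data known. Depth limits low genes most. Promoter windows came from RefSeq (GRCr8), were matched by symbol for 29 of 36 genes, and their coordinates are of that build and not of the build of the counts. Levels were not compared between genes, since transcript lengths were not used.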

Additional observations from a re-analysis of the deposited data

How the results depend on the processing

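With the study's fold-change threshold added, 0 genes were called higher and 0 lower, both among the 33 lysosomal genes and in the other lysosome lists, since no log2 fold change exceeded it. Under the other 16 alternatives the counts stayed within 1.5 times of those reported. Among the 33 genes, 24 to 26 were higher and 2 were lower, with 25 to 26 higher when 1 sample was left out. In the other lists, 49 to 59 were higher and 12 to 17 lower. The median log2 fold change of the lysosomal genes was 0.24 with library size only and 0.31 with no filter, and between these under the rest. With no filter all 36 genes entered the median, those too low to test included. The median of the lysosomal genes exceeded that of all genes by 0.26 to 0.31. Of 33 genes, 29 kept direction and call in all refits. Naglu, which was not called, was at 0 with at least 0.5 CPM in 1 sample, -0.01 with the upper quartile, -0.03 with library size only and -0.01 to 0.03 with 1 sample left out, and Tfe3, also not called, was at -0.01 without Control replicate 2. Gusb lost its call with library size only (log2 fold change 0.08) and without STZ replicate 1 or STZ replicate 2 (0.11 and 0.1). Smpd1 lost its call with library size only (0.08) and without Control replicate 3 (0.09). The cause was not tested. Control and STZ share replicate numbers, but nothing in the data pairs them. Once group means were removed, the pairs 1, 2 and 3 correlated at 0.0319, -0.0389 and 0.102 (10341 genes), and for 3 of 6 samples the best partner had the same number. With a replicate block, 26 of the 33 genes were higher and 2 lower, and the median was 0.27.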
